A study of Mus musculus with 14 samples.

Results

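The p53 pathway was followed through 10 genes of the 52550 in the table, namely Trp53 itself, 8 genes that p53 is known to switch on (Cdkn1a, Mdm2, Ccng1, Bbc3, Zmat3, Sesn2, Phlda3 and Eda2r) and Cdkn2a, whose products act upstream of p53 and of the retinoblastoma protein. The genes were chosen by name, and each matched 1 Ensembl gene of the GRCm38 annotation. RNA was sequenced from 14 mouse lung tumors, 6 KPY-Ctrl and 8 KPY-Setd2KO. All tumors arose in KPY mice, which carried Trp53 flox/flox and, at Rosa26, LSL-YFP/LSL-YFP. The mice were of both sexes and of a mixed B6J and 129S4vJae background, their age at dissection is not given in the sources used here, and a lentivirus given through the trachea delivered Cre, Cas9 and a guide RNA to lung cells. Cre switches on the yellow fluorescent protein (YFP) and removes the floxed part of Trp53, so the control tumors carried the Trp53 deletion as well. The guide targeted Setd2, the histone methyltransferase that trimethylates H3K36, in KPY-Setd2KO, and the bacterial gene for beta-galactosidase (sgBGal) in KPY-Ctrl. The tumors were dissected and sorted for live YFP-positive cells according to the study's methods, whereas the deposited sample descriptions speak of RNA from cell lines, and this conflict was not resolved. Fewer mice than tumors were used. Because the sources used here do not tie each tumor to a mouse, the tests took the tumors as independent.

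p53 is a transcription factor that cells keep at a low level and that accumulates after DNA damage or oncogene activation. Its targets stop the cell cycle, start apoptosis, repair DNA and limit p53 itself, and its loss lets lung adenomas progress to adenocarcinoma. The p53 protein binds as a tetramer to pairs of a 10-base decamer motif, and its target genes can also be transcribed through other factors.

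Total counts lay between 27866266 and 51828846 for KPY-Ctrl and between 20072236 and 40604404 for KPY-Setd2KO tumors. Of all genes, 16836 passed the expression filter, and these included every member except Eda2r. The epithelial marker list, with Epcam, Nkx2-1 and Sftpc, was detected in every tumor (mean log2 CPM of 12 genes from 6.86 to 9.57). A list of 15 leukocyte markers also varied widely, and its mean log2 CPM, used below as a leukocyte-marker score, spanned 3.53 to 8.69 over the KPY-Ctrl tumors and 3.29 to 8.94 over the KPY-Setd2KO tumors. None of these 15 markers was at 0 in any tumor, and their summed level spanned 632 to 10565 CPM in KPY-Ctrl and 344 to 13820 CPM in KPY-Setd2KO. The scores left a gap between 5.42 and 8.20, with 7 tumors on each side, and the genotypes were spread over both (difference in mean score 0.33, two-sided exact permutation test, p = 0.731). In sorted bulk RNA, fewer cells of a type and less RNA per cell cannot be told apart. Setd2, the targeted gene, spanned 41.9 to 63.6 CPM in KPY-Ctrl and 17.9 to 47.4 CPM in KPY-Setd2KO, with 6 of 8 KPY-Setd2KO tumors below the lowest control, but its log2 fold change of -0.74 did not pass (edgeR, adjusted p = 0.175). DESeq2 called it (-0.74, adjusted p = 0.0492).

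The decamer motif that p53 recognizes was searched by its consensus in the RefSeq promoters of GRCm38.p6, each reaching from 250 bases before to 50 bases after a transcription start, because these sequences show which members carry it close to a start. The motif reads the same on both strands. Of the 13 promoters listed for 9 members, 4 held it, 1 each for Trp53, Cdkn1a, Mdm2 and Ccng1, against 8.36% of all 32851 promoters. Zmat3 had no promoter entry. The stretches below run 5′ to 3′ on the strand of the gene, with the decamers in capitals.
Cdkn1a: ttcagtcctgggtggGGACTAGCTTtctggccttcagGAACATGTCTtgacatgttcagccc
Mdm2: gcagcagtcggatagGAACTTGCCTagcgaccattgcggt
Ccng1: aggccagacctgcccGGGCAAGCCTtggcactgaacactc
Trp53: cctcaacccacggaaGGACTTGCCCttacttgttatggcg
The Cdkn1a stretch (chr17:29090891-29090952, plus strand) belongs to the more upstream of its 2 listed starts and holds 2 decamers separated by 12 bases, from 73 to 42 bases before the start. A pair of decamers at most 13 bases apart occurred in 24 of all promoters (0.0731%). The decamers of Mdm2 (chr10:117710920-117710959, minus strand) and Ccng1 (chr11:40755447-40755486, minus strand) began 186 and 185 bases before their starts, and that of Trp53 (chr11:69580269-69580308, plus strand) began 75 bases before. Only exact matches to the consensus were marked, so decamers with a mismatch stay in lower case, also next to a marked one. Such a decamer directly follows the second marked one of Cdkn1a and was not counted in the pair. A match describes the letters in the window and not binding, and sites outside these windows were not searched.

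Per length, the members spanned a wide range of levels. Cdkn2a was the most abundant, at 78.1 ± 42.5 CPM per kilobase of annotated exon (SD, n = 14 tumors), above 95.7% of tested genes. Cdkn1a followed at 32.8 ± 31.7 and Ccng1 at 24.5 ± 15.5 CPM per kilobase. The ranges of these 3 leading members overlapped across the tumors, and whether their levels differed within tumors was not tested. Mdm2 (7.01 ± 3.16), Sesn2 (4.90 ± 1.37), Phlda3 (2.81 ± 1.80) and Bbc3 (2.71 ± 1.54) lay in the middle, again with overlapping neighbors. Zmat3 (1.27 ± 0.24) and Trp53 (0.645 ± 0.184) were lower, and Trp53 stood above only 22.4% of tested genes. The 4045 bases of annotated exon used for Trp53 include its floxed exons, so this rank does not give the level per base left after recombination. Eda2r was nearly absent at 0.0174 ± 0.0416 CPM per kilobase. Between tumors, Zmat3 was the steadiest member, with a ratio of 1.83 between its highest and lowest tumor, and Phlda3 (24.1) and Cdkn1a (16.0) were the most variable.

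**Figure D1:**
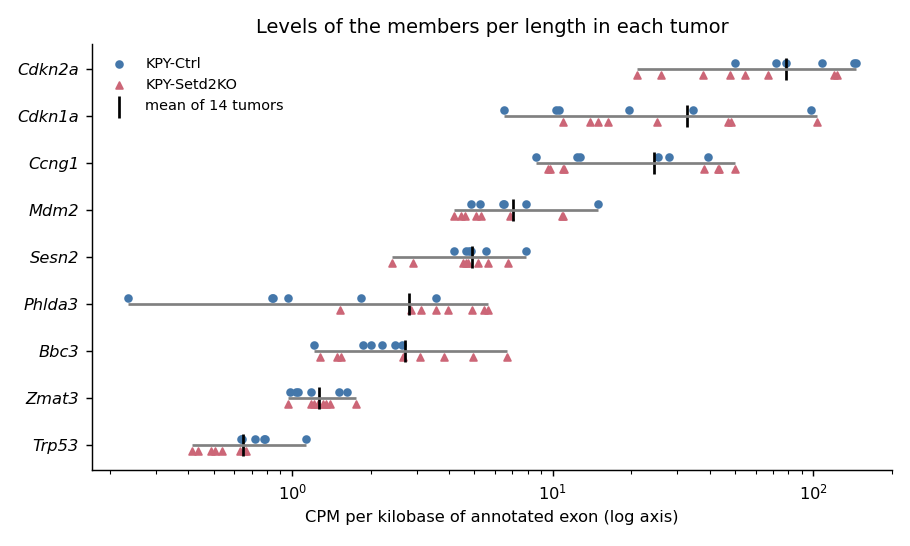
Each point is 1 tumor (circles KPY-Ctrl, triangles KPY-Setd2KO), the gray line spans the 14 tumors and the black tick is their mean, in CPM per kilobase of annotated exon on a log axis. The means fall from 78.1 for Cdkn2a to 0.645 for Trp53, whose length here includes the floxed exons, and Phlda3 and Cdkn1a have the longest lines. Eda2r, at 0 in 10 tumors, is not drawn.

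Trp53 (ENSMUSG00000059552.13, chr11:69580359-69591873 of GRCm38, plus strand) was detected in every tumor in spite of the flox design. Its counts spanned 105 to 213 in KPY-Ctrl and 46 to 98 in KPY-Setd2KO. The loxP sites of the Trp53 flox allele flank exons 2 to 10 of 11. In the transcript ENSMUST00000171247.7, those exons make up 1091 of 1867 bases (58.4%), so that 776 bases (41.6%) in exons 1 and 11 stay in the genome after recombination. Counts per gene do not separate reads from the floxed and the remaining exons, and so the gene's level does not check the deletion. The processed pseudogene Trp53-ps had 0 counts in all tumors. Trp53 relatives were at most 0.72 CPM for Trp63 and 0.11 CPM for Trp73, and neither was tested.

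In KPY-Ctrl, Trp53 had a lowest value of 2.56, a median of 3.04 and a highest value of 4.59 CPM. In KPY-Setd2KO, the lowest was 1.67, the median 2.12 and the highest 2.70 CPM. All 8 KPY-Setd2KO tumors lay below the control median and 6 below the lowest control, while replicates 3 and 7 fell within the control range. The means were 3.17 ± 0.75 CPM (SD, n = 6) and 2.19 ± 0.40 CPM (SD, n = 8), a log2 fold change of -0.53 (SE 0.22, 95% interval -1.01 to -0.05). The unadjusted p was 0.0319 in edgeR's quasi-likelihood test, and it did not pass after adjustment over all genes (adjusted p = 0.311). A two-sided exact permutation of the tumors over 3003 splits gave p = 0.00433 for this gene alone, not adjusted for the 10 members. Without KPY-Ctrl replicate 3, the highest tumor, the log2 fold change was -0.40 (edgeR, adjusted p = 0.544).

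**Figure D2:**
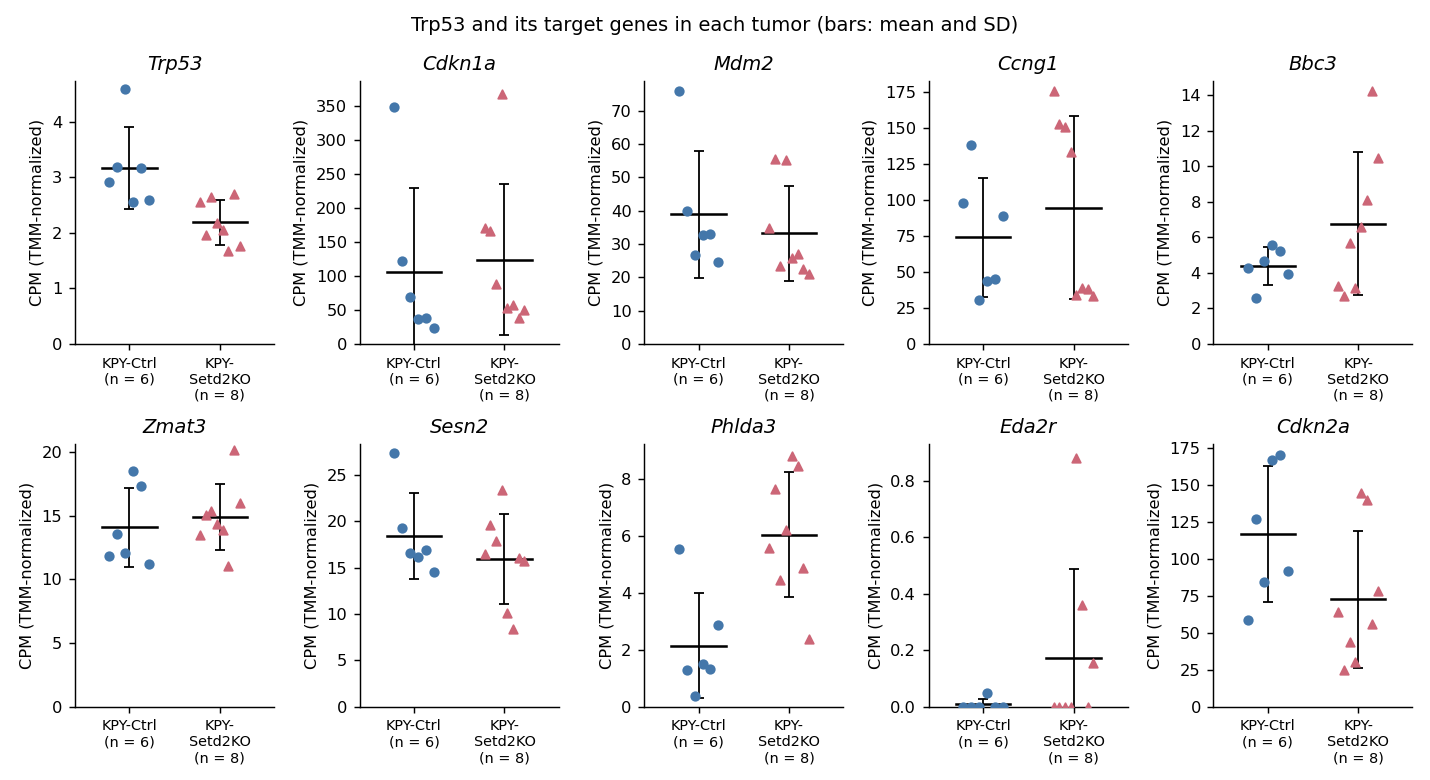
Normalized expression (CPM) of each member by genotype, with 1 point per tumor and bars for the mean and SD (6 KPY-Ctrl, 8 KPY-Setd2KO tumors). Trp53 points sit lower and Phlda3 points higher in KPY-Setd2KO, with overlap in each, while Cdkn1a, Mdm2 and Ccng1 spread widely within both genotypes.

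No member was called between genotypes at an adjusted p of 0.05, and neither was any of the 16836 genes tested (0%). At an unadjusted p under 0.05, 2 of the 9 tested members passed (Trp53 lower, Phlda3 higher), against 13.7% of all genes. The median log2 fold change of the 9 was 0.08, beside 0.03 over all genes. The CPM ranges of the genotypes overlapped for every member. Ranges without overlap were found for 0.57% of tested genes.

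Among the genes that restrain p53, Mdm2 encodes the ubiquitin ligase that degrades p53, and Ccng1 encodes cyclin G1, which recruits a phosphatase to Mdm2. Mdm2 (ENSMUSG00000020184.15, chr10:117688875-117710758) spanned 24.7 to 76.1 CPM in KPY-Ctrl (median 32.9) and 21.1 to 55.5 CPM in KPY-Setd2KO (median 26.4). KPY-Ctrl replicate 1 was the highest tumor, and 3 KPY-Setd2KO tumors lay below the lowest control. The log2 fold change was -0.23 (SE 0.31, edgeR, adjusted p = 0.819) and became 0.08 without KPY-Ctrl replicate 1. Ccng1 (ENSMUSG00000020326.7, chr11:40748552-40755311) had a lowest, median and highest value of 30.4, 66.8 and 139 CPM in KPY-Ctrl and of 33.6, 86.3 and 176 CPM in KPY-Setd2KO. Its values divided into a low and a high set within each genotype, with no tumor between 44.8 and 88.7 CPM. The log2 fold change was 0.36 (SE 0.50, edgeR, adjusted p = 0.827).

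Cdkn1a encodes p21, the inhibitor of cyclin-dependent kinases through which p53 arrests the cycle. Cdkn1a (ENSMUSG00000023067.13, chr17:29090976-29100727) had a lowest, median and highest value of 23.0, 53.5 and 348 CPM in KPY-Ctrl. In KPY-Setd2KO these values were 38.8, 73.3 and 368 CPM. A single tumor of each genotype, KPY-Ctrl replicate 1 and KPY-Setd2KO replicate 4, stood near the top. KPY-Ctrl replicates 4, 5 and 6 lay below every KPY-Setd2KO tumor, and the remaining values of the genotypes were interspersed. The log2 fold change was 0.23 (SE 0.67, 95% interval -1.20 to 1.65, edgeR, adjusted p = 0.928). It was 1.11 without KPY-Ctrl replicate 1 and -0.25 without KPY-Setd2KO replicate 4, neither of which passed.

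Of the members tied to cell death and survival, Phlda3 moved most. Phlda3 encodes a pleckstrin homology protein that limits Akt activation at the membrane. Phlda3 (ENSMUSG00000041801.5, chr1:135766119-135769136) had a lowest, median and highest value of 0.37, 1.41 and 5.54 CPM in KPY-Ctrl (17 to 232 counts). In KPY-Setd2KO the values were 2.37, 5.88 and 8.82 CPM (62 to 421 counts). All 8 KPY-Setd2KO tumors exceeded the control median and 5 exceeded the highest control, KPY-Ctrl replicate 1. The log2 fold change was 1.49 (SE 0.50, 95% interval 0.43 to 2.56), with an unadjusted p of 0.0094 in edgeR (adjusted p = 0.216). DESeq2 on the same genes called it (log2 fold change 1.51, adjusted p = 0.0398), as it did 4.59% of all genes. The exact permutation test over the tumors gave p = 0.0040, two-sided and not adjusted. Without KPY-Ctrl replicate 3, the lowest tumor, the log2 fold change was 1.27, and without KPY-Ctrl replicate 1 it was 2.04 (edgeR, adjusted p = 0.0970).

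Bbc3 encodes Puma, a BH3-only activator of mitochondrial apoptosis. Bbc3 (ENSMUSG00000002083.13, chr7:16308393-16318205) had values of 2.58, 4.48 and 5.59 CPM at the lowest, median and highest KPY-Ctrl tumor and of 2.71, 6.13 and 14.2 CPM in KPY-Setd2KO. Of the KPY-Setd2KO tumors, 5 lay above the highest control, and the other 3 overlapped the controls. The log2 fold change was 0.62 (SE 0.38, edgeR, adjusted p = 0.507). Eda2r, on the X chromosome, encodes a receptor of the tumor necrosis factor family. It had counts in 4 tumors, with 3 in KPY-Ctrl replicate 4 and 42, 14 and 4 in KPY-Setd2KO replicates 5, 6 and 8, and was at 0 in the other 10. These levels did not pass the filter, and no fold change is given.

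Zmat3 encodes a zinc-finger protein that binds RNA, and Sesn2 encodes sestrin 2, which restrains mTORC1 under stress. Zmat3 (ENSMUSG00000027663.12, chr3:32334792-32366014) spanned 11.2 to 18.5 CPM in KPY-Ctrl and 11.02 to 20.2 CPM in KPY-Setd2KO, with a log2 fold change of 0.08 (95% interval -0.28 to 0.44, edgeR, adjusted p = 0.887). This interval leaves out a change larger than 0.44 on the log2 scale in either direction. Scaled by library size alone, the sign turned (-0.10). Sesn2 (ENSMUSG00000028893.8, chr4:132492032-132510501) spanned 14.5 to 27.4 CPM in KPY-Ctrl and 8.38 to 23.3 CPM in KPY-Setd2KO. KPY-Setd2KO replicates 5 and 6 lay below every control, and the log2 fold change was -0.21 (SE 0.23, edgeR, adjusted p = 0.763).

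**Figure D3:**
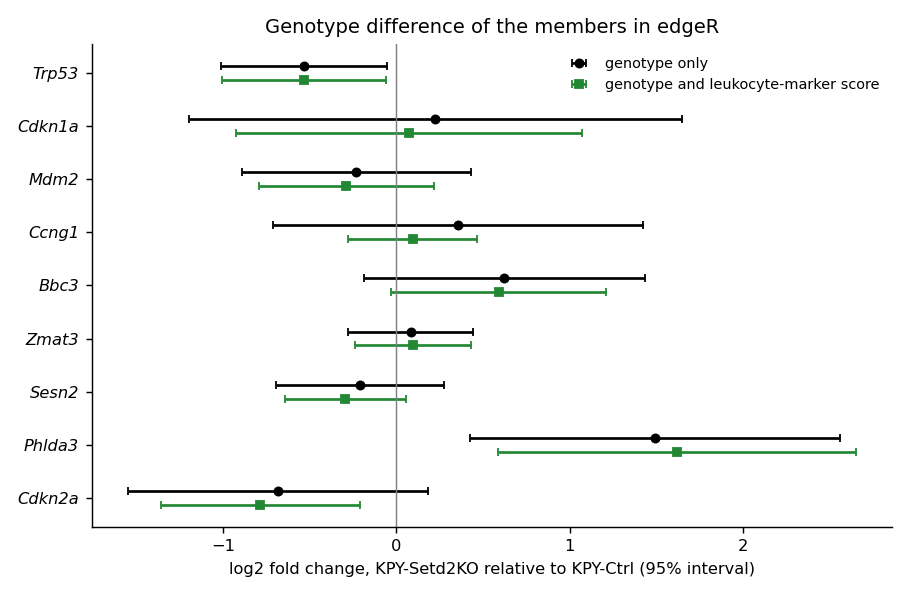
Log2 fold change of the 9 tested members, KPY-Setd2KO relative to KPY-Ctrl, with 95% intervals, from edgeR with genotype only (black circles) and with genotype and leukocyte-marker score (green squares). The intervals of Trp53 and Phlda3 leave out 0 in both fits and that of Cdkn2a in the second, before adjustment for multiple testing. No member passed an adjusted p of 0.05 in either fit.

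Cdkn2a stands apart from the targets, because its products act above p53 and the retinoblastoma protein. The gene (ENSMUSG00000044303.6, chr4:89274471-89294653, minus strand) gives p16Ink4a and p19Arf, which start from different first exons and share exon 2 and most of exon 3, and counts per gene do not tell them apart. p19Arf holds back Mdm2, and p16Ink4a inhibits Cdk4 and Cdk6. In KPY-Ctrl the lowest, median and highest values were 58.7, 109 and 171 CPM. In KPY-Setd2KO they were 24.6, 60.1 and 145 CPM. Of the KPY-Setd2KO tumors, 4 lay below the lowest control, and replicates 5 and 6 lay in the upper part of the control range. The log2 fold change was -0.68 (SE 0.40, 95% interval -1.55 to 0.18, edgeR, adjusted p = 0.495), and the exact permutation test over the tumors gave p = 0.0823. Next to it on chromosome 4, Cdkn2b, the gene of p15Ink4b, had a log2 fold change of 0.06 (SE 0.54, edgeR, adjusted p = 0.978), and this sign turned with the leukocyte-marker covariate (-0.22). Mtap, the methylthioadenosine phosphorylase gene and another neighbor of Cdkn2a, had -0.04 (SE 0.27, edgeR, adjusted p = 0.968), which reached 0.07 without KPY-Ctrl replicate 5.

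When the leukocyte-marker score entered the fit as a covariate, 5.71% of all genes were called between genotypes (edgeR, adjusted p under 0.05), and still no member. Phlda3 came closest, at a log2 fold change of 1.62 (SE 0.48, adjusted p = 0.0604). Cdkn2a stood at -0.78 (SE 0.27, adjusted p = 0.0910) and Trp53 at -0.53 (SE 0.22, adjusted p = 0.159). DESeq2 with the same covariate called Phlda3 (1.63, adjusted p = 0.0050) and Cdkn2a (-0.78, adjusted p = 0.0374), in a fit that called 13.6% of all genes. Setd2 was called in the edgeR fit (-0.83, adjusted p = 0.0257). Limma voom with quality weights, on genotype alone, called 4 members and 49.3% of all genes. Those 4 were Phlda3 (2.07), Cdkn1a (1.45) and Ccng1 (1.17), which were higher in KPY-Setd2KO, and Cdkn2a (-1.56), which was lower, and in the same fit the 15 leukocyte markers had a median log2 fold change of 2.91.

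The members' levels were next set against the leukocyte-marker score over the 14 tumors. In an edgeR fit with genotype and score, 6 of 9 tested members had a slope that passed, against 57.1% of all genes. Of these, 4 rose with the score, where 28.5% of all genes did, and 2 fell, where 28.6% did. The slope is the change in log2 expression for each unit of score. It was 0.40 for Ccng1 (SE 0.04, adjusted p = 1.1e-06), 0.39 for Cdkn1a (SE 0.10, adjusted p = 0.0046), 0.16 for Mdm2 (SE 0.05, adjusted p = 0.0174) and 0.13 for Sesn2 (SE 0.04, adjusted p = 0.0075). Cdkn2a fell with the score (-0.25, SE 0.06, adjusted p = 0.0025), and so did Bbc3 (-0.21, SE 0.07, adjusted p = 0.0172). The 12 epithelial markers all fell along the same score, each with a slope that passed. All 14 macrophage markers had a positive slope, and 11 of these passed.

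The slope of Trp53 was -0.00 (95% interval -0.11 to 0.10, edgeR, adjusted p = 0.969). Zmat3 had -0.03 (adjusted p = 0.536) and Phlda3 0.11 (adjusted p = 0.356) in the same edgeR fit. Without KPY-Ctrl replicate 1 the slope of Mdm2 was 0.12 and did not pass (edgeR, adjusted p = 0.0583). Scaled by library size alone, the slopes of Mdm2 (0.09) and Sesn2 (0.06) did not pass, that of Zmat3 did (-0.11), and all genes shifted down, with 3147 called higher and 6791 lower in place of 4795 and 4814. The part of the leukocyte-marker RNA in these levels was not tested.

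The scores formed separate clusters, and the relation was therefore also fitted within each. Within the 7 tumors below the gap no member's slope passed (edgeR, 2 at an unadjusted p under 0.05, Bbc3 and Sesn2), and within the 7 above it none did either (4 at an unadjusted p under 0.05, Cdkn1a, Mdm2, Sesn2 and Cdkn2a). Over all genes, 2851 of 17739 tested below the gap and 2328 of 16320 tested above it had such an unadjusted p. The fit below the gap called 1.35% of all genes and that above it 0%. The slope of Cdkn1a was -0.32 below the gap and 5.52 above it. Scores above the gap spanned only 8.20 to 8.94, so a slope per unit of score reaches beyond the values seen there. For Ccng1 the slopes were 0.05 (95% interval -0.22 to 0.32) and -0.04 (95% interval -1.46 to 1.37).

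**Figure D4:**
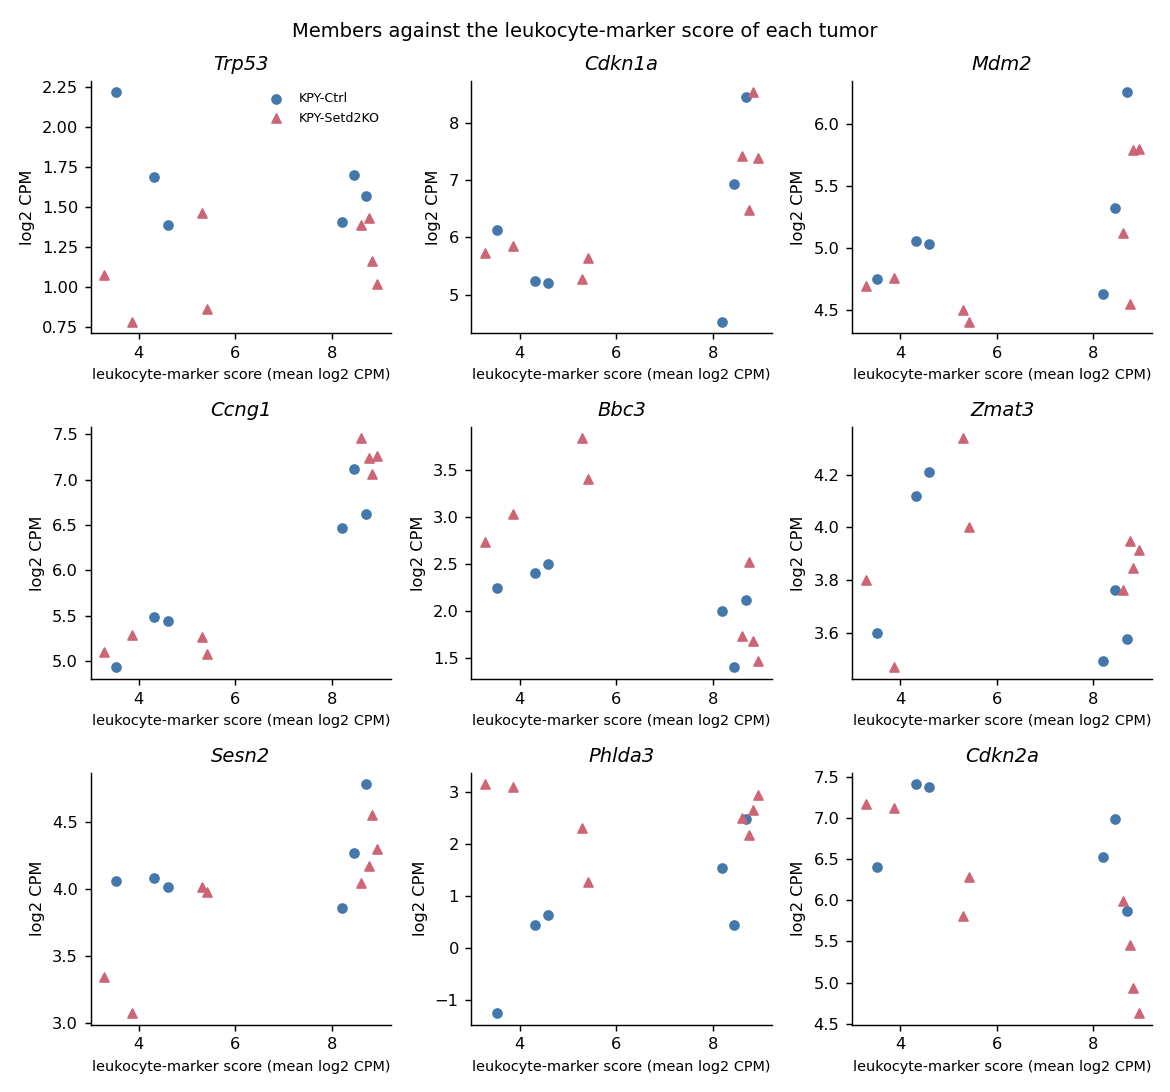
Log2 CPM of each tested member against the leukocyte-marker score (mean log2 CPM of 15 markers), with 1 point per tumor, circles for KPY-Ctrl and triangles for KPY-Setd2KO. No tumor scored between 5.42 and 8.20. Ccng1 is higher in every tumor right of this gap than in any left of it, Cdkn1a and Cdkn2a overlap across it, and Trp53 has a slope of -0.00.

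The wider p53 network of 65 genes, listed by role, was put through the same fits. Of 63 tested, 0 were called between genotypes (edgeR, 10 at an unadjusted p under 0.05, beside 13.7% of all genes), and their median log2 fold change was -0.04. The 10 were 5 higher and 5 lower in KPY-Setd2KO. Of the 17 regulators of p53 tested, 13 lay below 0 and 4 above, where 8877 of all 16836 genes lay above. Their median was -0.32 against 0.03 over all genes, and none was called. The 4 regulators at an unadjusted p under 0.05, beside 13.7% of all genes, were all lower. They were the DNA damage kinases Atm, Atr, Chek1 and Chek2.

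Atm encodes the kinase that phosphorylates p53 after double-strand breaks. Its lowest, median and highest values were 9.86, 20.7 and 29.9 CPM in KPY-Ctrl and 6.95, 9.60 and 13.2 CPM in KPY-Setd2KO, a log2 fold change of -1.12 (SE 0.24) with an unadjusted p of 0.000299 in edgeR (adjusted p = 0.116). DESeq2 called it (adjusted p = 0.0018), and so did edgeR with the covariate (-1.07, adjusted p = 0.0190). Chek1 was the only gene of the network whose ranges did not overlap, at 6.24 to 7.72 CPM in KPY-Ctrl and 2.18 to 5.97 CPM in KPY-Setd2KO (-0.71, edgeR, adjusted p = 0.217).

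Among the further targets of p53, those of arrest had a median log2 fold change of 0.28 (7 genes), apoptosis 0.16 (11), metabolism -0.07 (13), repair -0.03 (5) and the remaining targets 0.02 (8). Sfn, the gene of the cell cycle inhibitor 14-3-3 sigma, had 1.02 (SE 0.40, edgeR, adjusted p = 0.277). Pmaip1 encodes Noxa, a BH3-only protein like Puma, and spanned 1.51 to 21.3 CPM in KPY-Ctrl and 9.29 to 41.0 CPM in KPY-Setd2KO (1.64, SE 0.56, edgeR, adjusted p = 0.226). Cd82, a tetraspanin gene, had 1.33 (SE 0.38, edgeR, adjusted p = 0.160). Pank1, of coenzyme A synthesis, had -1.28 (SE 0.54, edgeR, adjusted p = 0.317). In DNA repair, Polk had 0.35 and Ddb2 -0.54, neither of which passed (edgeR, adjusted p = 0.489 and 0.751). With the leukocyte-marker covariate edgeR called 6 of the 63, where 5.71% of all genes were called. These were Atm, Chek1 (-0.76) and Pank1 (-1.11), which were lower, and Sfn (0.99), Pmaip1 (1.96) and Cd82 (1.36), which were higher in KPY-Setd2KO.

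**Figure D5:**
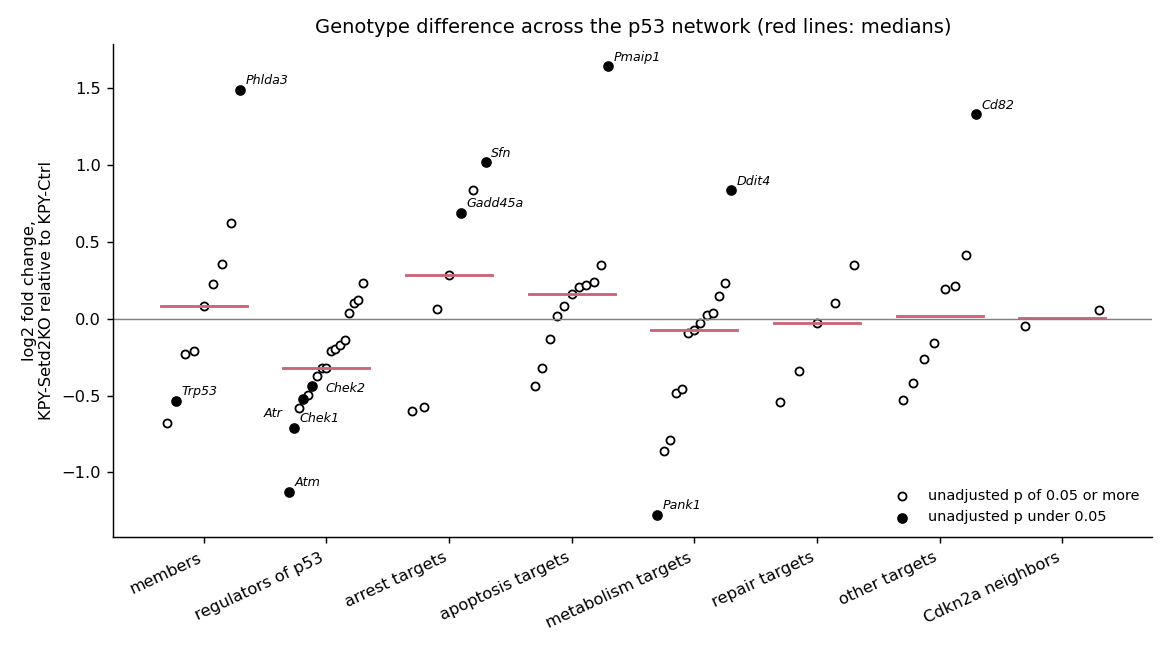
Log2 fold change, KPY-Setd2KO relative to KPY-Ctrl, of each tested member and network gene by role (edgeR, genotype only), with a red line at the median of each list. Filled points had an unadjusted p under 0.05, and no point passed after adjustment. The line of the p53 regulators sits lowest, at -0.32, with Atm at -1.12, and Pmaip1 is the highest point at 1.64.

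Against the leukocyte-marker score, 44 of the 63 network genes had a slope that passed (17 higher, 27 lower), beside 57.1% of all genes. Apoptosis targets moved in both directions, with 7 of 11 higher and 2 lower. Bax, the pore-forming apoptosis effector, had a slope of 0.29 and Tnfrsf10b, the death receptor gene, of -0.49. Of 13 metabolism targets 3 rose and 7 fell, with Lpin1, a phosphatidate phosphatase gene, at 0.74 and Gpx1, a glutathione peroxidase gene, at 0.28. Of 17 regulators 8 fell and 2 rose, with Trp53bp1 at -0.31 among those that fell. Arrest targets divided evenly (2 higher and 2 lower of 7), with Plk3 at 0.89. Repair targets gave 1 higher and 3 lower of 5, and the remaining targets 2 higher and 3 lower of 8. Cdkn2b (-0.37) and Mtap (-0.14) both fell, as Cdkn2a did. Within the tumors below and above the gap, 3 and 0 of these network genes had a slope that passed. The examples with the widest slopes were chosen after their values were seen.

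The genes most like a member were found by Pearson's r of log2 CPM over the 14 tumors, as a description, since all points share their libraries and the step in the score. For Trp53 these were Sephs2 (r = 0.858), Bckdk (0.837), Ppp2r1a (0.830), Slc19a1 (0.826) and Slc1a5 (0.806). For Cdkn1a they were Klf16 (0.983), Nr4a1 (0.972), Sertad1 (0.958), Egr1 (0.946) and Clk4 (0.946), of which Nr4a1 and Egr1 are immediate early genes. For Cdkn2a they were Map2k6 (0.959), Palld (0.959), Neo1 (0.947), Tceanc (0.945) and Sinhcaf (0.944).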

How the data were processed

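The authors deposited expected counts per Ensembl gene, given as whole numbers. According to the study's methods and the submitters' processing notes, single-end reads were quantified with Salmon 0.8.2 against GRCm38.p5. The step from transcripts to genes and the use of strand are not given in the sources used here. The largest values (8 values in 3 genes, none a member) were written with 3 digits. All per-sample columns matched a tumor by name. A further allele that all of the mice shared is not reported here. Symbols, lengths and coordinates came from GENCODE M21.

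Tests used edgeR 4.0.16 (R 4.3.3) on the rounded counts (TMM factors, filterByExpr by genotype, robust quasi-likelihood test, Benjamini-Hochberg adjustment over 16836 genes), and an adjusted p under 0.05 made a call. The study used DESeq2, which served here as an alternative (1.42.0), beside limma 3.58.1. Log2 CPM had a prior count of 2. CPM per kilobase used the union of annotated exons. SE and 95% intervals were derived from the F statistic. The edgeR fit with genotype and leukocyte-marker score was tried on simulated data, whereas the fit with genotype only was not.

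The members, gene lists and tests were chosen with earlier results of these data known. Genes named were the members, Setd2, Trp53-ps, Trp63, Trp73, Cdkn2b, the gene of each list with the smallest p and with the largest change, and the 5 most like Trp53, Cdkn1a and Cdkn2a; others named were chosen after their values were seen. The smallest chi-square per degree of freedom between tumors of a genotype was 21.2, for KPY-Ctrl replicates 4 and 5. The next smallest was 69.3, for KPY-Setd2KO replicates 7 and 8. No library was therefore a repeat of another, but these values cannot tell whether samples came from the same tumor. For the RNA of each genotype the study gives fewer mice than tumors, so some tumors shared a mouse, and the labels do not say which. P-values, also those of the exact permutations, measure the spread between tumors and not between mice. The depth gives precise values for abundant genes; Trp53, Phlda3 and Eda2r rest on few counts.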

Additional observations from a re-analysis of the deposited data

Results flagged for a closer look

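Trp53 in KPY-Ctrl replicate 3 stood apart from the other control tumors. Its level was 2.21 log2 CPM (4.59 CPM), whereas the other 5 lay between 1.39 and 1.70 log2 CPM, a gap beyond Dixon's 95% limit. It was the only value so set apart among 41 groups of values examined (members and named genes with at least 10 counts in a tumor), where chance sets apart about 1 in 20.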

How the results depend on the processing

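No member was called between genotypes by edgeR with either other normalization, either other filter, the covariate, or any tumor left out, and the same held for the network except with the covariate, where 6 genes were called. Calls for members and network genes were 1 and 5 with DESeq2, 2 and 14 with DESeq2 and the covariate, and 4 and 37 with limma voom and quality weights, which called 49.3% of all genes. For slopes on the score, 6 members were called (5 to 6 with a tumor left out) and 44 network genes (38 to 43). Within the tumors below and above the gap, added after seeing the data, 0 and 0 members and 3 and 0 network genes were called. Correlations of the deviations of same-numbered tumors ran from -0.66 to 0.66. They were positive where both tumors lay on the same side of the gap in the score and negative where they did not. They therefore cannot tell whether replicate numbers pair the tumors. With the replicate block, 0 members, 0 network genes and 0 of all genes were called between genotypes. Against the score, the fit with this block called 1 member (11.1%) and 24 network genes (38.1%), beside 30.2% of all genes. The cause of these changes was not tested. The median log2 fold change of all genes was 0.03 with TMM factors and -0.11 with library sizes alone.

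Signs turned in these cases. By genotype with limma voom, values were 0.0077 for Mdm2, -0.10 for Bbc3, -0.16 for Zmat3, 0.0062 for Sesn2 and -1.32 for Cdkn2b. Zmat3 was -0.095 with library size and -0.0038 with the replicate block. Cdkn2b was -0.014 with library size, -0.22 with the covariate, -0.23 with DESeq2 and the covariate and -0.54 with the replicate block. With a tumor left out, Cdkn1a ran from -0.25 to 1.11, Mdm2 from -0.37 to 0.077, Cdkn2b from -0.29 to 0.22 and Mtap from -0.24 to 0.072. For slopes, Trp53 was 0.0072 with macrophage markers, 0.0049 with the replicate block and from -0.027 to 0.031 with a tumor left out. Zmat3 was 0.013 with the replicate block, and Cd82 was -0.043 with library size and -0.0034 with the replicate block. Below the gap, slopes were -0.32 for Cdkn1a, -0.11 for Mdm2, 0.36 for Bbc3, 0.27 for Zmat3 and -0.45 for Phlda3, and above it -0.04 for Ccng1 and 0.26 for Zmat3.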
